A study of Mus musculus with 12 samples.

Results

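The red cell membrane and heme genes described here are 7 erythroid genes, *Slc4a1*, *Alas2*, *Sptb*, *Ank1*, *Klf1*, *Gata1* and *Tfrc*, followed by their symbols through RNA-seq of embryonic mouse hearts. They are 7 of the 20368 genes in the deposited table and were picked by name as red cell genes other than globins. They were chosen by an earlier look at their counts in these same 12 libraries, so their own differences between groups are given as descriptions and carry no p-value. Tested values are given for 56 other erythroid genes, called the wider erythroid list below, of which 55 had counts.

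Positions are those of GRCm38. *Slc4a1* (ENSMUSG00000006574) spans chr11:102348824-102366203 on the - strand, *Alas2* (ENSMUSG00000025270) chrX:150547375-150570638 on the + strand, and *Sptb* (ENSMUSG00000021061) chr12:76580488-76710547 on the - strand. *Ank1* (ENSMUSG00000031543) spans chr8:22974844-23150497 on the + strand and *Klf1* (ENSMUSG00000054191) chr8:84901928-84905291 on the + strand. *Gata1* (ENSMUSG00000031162) spans chrX:7959260-7978071 on the - strand and *Tfrc* (ENSMUSG00000022797) chr16:32608920-32632794 on the + strand.

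The hearts came from CD1 embryos at E11.5 and E12.5, with 3 libraries of each genotype at each stage and 12 in all. Controls were *Mesp1Cre;Hira*+/fl, called Cre control, and mutants were *Mesp1Cre;Hira*-/fl, called Mutant. All 4 groups carried *Mesp1Cre*, in which *Mesp1* drives Cre recombinase in early mesoderm, the source of the heart and its vessels, and all carried a floxed allele of *Hira*, which encodes a chaperone of histone H3.3. After recombination the controls kept 1 intact allele, and cells of the mutants that never expressed Cre kept 1 as well, because the other allele was null throughout the embryo. RNA was taken from hearts with no cell sorting described, so any blood they held was sequenced with them.

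Red cells fill themselves with hemoglobin and wrap it in a membrane braced by a spectrin skeleton. SLC4A1, also called band 3, exchanges chloride for bicarbonate across that membrane. Ankyrin, from *Ank1*, ties band 3 to the spectrin net, and *Sptb* encodes the beta chain of spectrin. ALAS2 makes the first committed step of heme synthesis in red cells, and the transferrin receptor, from *Tfrc*, brings in the iron. GATA1 and KLF1 are transcription factors that switch these genes on as the cells mature. In embryos of this age the circulating red cells are mostly primitive cells born in the yolk sac, which mature together in the bloodstream.

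Iron-responsive elements are short hairpins in messenger RNA that bind iron regulatory proteins when iron is scarce. One before the coding part holds back translation, and those after it slow the decay of the message. The hairpins were searched for as a bulged C, 5 paired bases, the loop CAGTGN and 5 bases pairing back, with G and T allowed to pair, on the transcript strand of GENCODE vM21 (GRCm38). Such a hairpin stood in the 5′ UTR of *Alas2*, in a window that crosses a splice junction between chrX:150547458 and 150552150 on the + strand, and 4 stood in the 3′ UTR of *Tfrc*, all on the + strand of chromosome 16. These are chr16:32631219-32631248, chr16:32631598-32631627, chr16:32631663-32631692 and chr16:32631710-32631739 in the order printed. A hairpin of this form was present in the 5′ UTR of 31 of 21181 genes (0.146%) and in the 3′ UTR of 144 of 21166 (0.68%). None was found in the UTRs of the other 5 genes. The hairpins are shown because *Alas2* and *Tfrc*, the heme and iron genes of the 7, parted in E12.5 mutants. Their log2 fold changes against controls were -1.40 and 0.24 there, with overlapping groups for *Tfrc*. At E11.5 both had higher means in mutants (0.45 and 0.19), with overlap. Any part of the hairpins in these levels was not tested. The capitals mark the 6 bases of the loop, written as DNA.
Alas2 5′ UTR: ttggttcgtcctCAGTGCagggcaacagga
Tfrc 3′ UTR a: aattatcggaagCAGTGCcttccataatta
Tfrc 3′ UTR b: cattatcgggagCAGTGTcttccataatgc
Tfrc 3′ UTR c: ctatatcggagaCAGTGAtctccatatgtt
Tfrc 3′ UTR d: aattatcgggaaCAGTGTttcccataattt

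Upstream sequence was available for 5 of the 7 genes in RefSeq (GRCm38.p6), without *Slc4a1* and *Ank1*. The 250 bases before the start of *Alas2* (chrX:150547167-150547416, + strand), *Klf1* (chr8:84901732-84901981, + strand) and *Gata1* (chrX:7967911-7968160, - strand, inside the longer GENCODE gene) are printed because *Klf1* and *Gata1* ran together over the 12 libraries while *Alas2* took another course from E11.5 to E12.5. Capitals mark GATAA, the core bound by GATA factors, and CCNCNCCC, a CACC-box pattern bound by KLF1 and its relatives, each read on both strands so that TTATC is a GATAA on the other strand. The motifs GATAA and CCNCNCCC share no base in these windows, and neighbouring CACC matches overlap each other in *Alas2*.
Alas2: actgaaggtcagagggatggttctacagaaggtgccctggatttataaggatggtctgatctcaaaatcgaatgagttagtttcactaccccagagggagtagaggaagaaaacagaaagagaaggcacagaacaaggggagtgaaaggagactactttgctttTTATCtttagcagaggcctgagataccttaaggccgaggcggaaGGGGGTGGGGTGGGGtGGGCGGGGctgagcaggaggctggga
Klf1: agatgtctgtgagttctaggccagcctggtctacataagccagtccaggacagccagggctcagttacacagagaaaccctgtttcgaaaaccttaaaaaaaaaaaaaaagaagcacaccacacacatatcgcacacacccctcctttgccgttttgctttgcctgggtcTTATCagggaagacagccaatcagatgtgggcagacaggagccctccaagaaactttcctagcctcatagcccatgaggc
Gata1: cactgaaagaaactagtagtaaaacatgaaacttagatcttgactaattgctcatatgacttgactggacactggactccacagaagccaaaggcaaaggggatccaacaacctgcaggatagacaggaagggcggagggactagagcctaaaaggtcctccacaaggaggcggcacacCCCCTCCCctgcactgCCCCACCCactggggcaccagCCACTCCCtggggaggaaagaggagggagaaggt
*Alas2* held 1 GATAA and 4 CCNCNCCC matches, *Klf1* 1 GATAA and no CCNCNCCC, and *Gata1* no GATAA and 3 CCNCNCCC. The windows of *Sptb* and *Tfrc*, not printed, held no GATAA either. *Sptb* held 3 CCNCNCCC matches, like *Gata1*, and the windows of *Tfrc* held 3 and 2. Of 32851 mouse promoter windows of this length, 22.6% held GATAA, 45.9% held CCNCNCCC and 6.89% held both. A match is a run of letters, and no binding was measured here.

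The libraries held 12417860 to 18116324 counts on genes, and levels are given as CPM, counts scaled to a common library total, after TMM scaling, as mean ± SD over 3 libraries. The least deeply sequenced was E11.5 Mutant 3. By their Y-linked genes all 3 E11.5 control libraries, 1 of 3 E11.5 Mutant libraries (replicate 3) and 1 library of each genotype at E12.5 (control 3 and Mutant 1) were male. *Hira* itself, counted over the whole gene, had 58.5 to 83.3 CPM in E12.5 controls and 68.0 to 76.9 CPM in E12.5 mutants, so the gene total does not separate the genotypes. Heart muscle genes were high in every group, with 2872 to 3732 CPM of *Tnnt2* as group means.

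At E12.5 the red cell membrane and heme genes lay lower in the mutant hearts, with the exception of *Tfrc*. *Slc4a1*, *Alas2* and *Ank1* differed most, and in each of them all 3 mutant libraries lay below all 3 controls. In a whole heart, fewer red cells and less of each message per red cell cannot be told apart.

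*Slc4a1* stood at 178, 137 and 259 CPM in the 3 E12.5 controls and at 71.8, 55.1 and 55.8 CPM in the 3 mutants. Its log2 fold change was -1.64 ± 0.20 (SE, n = 3 against 3), a level 3.12-fold lower, and it ran from -1.83 to -1.36 as each library was left out. *Alas2* stood at 137, 110 and 189 CPM in controls and at 67.6, 48.3 and 48.0 CPM in mutants. The highest mutant value of *Alas2* was well under the lowest control, and its log2 fold change was -1.40 ± 0.19. *Ank1* had 40.2, 32.6 and 50.0 CPM in controls and 24.1, 18.8 and 21.4 CPM in mutants, a log2 fold change of -0.92 ± 0.15. For all 3 genes control 3 was the highest library and control 2 the lowest of the controls.

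*Sptb* had 78.8, 56.5 and 73.7 CPM in controls and 48.5, 35.1 and 64.9 CPM in mutants, and the groups overlapped. Its log2 fold change of -0.48 ± 0.19 was the nearest to 0 among the membrane genes of the 7. The transcription factors were scarce at this stage. *Klf1* had 38, 38 and 64 counts in controls and 38, 24 and 27 in mutants, or 2.76 ± 0.91 and 1.84 ± 0.56 CPM, and *Gata1* had 45, 23 and 56 counts against 29, 11 and 30. Both overlapped between genotypes, with log2 fold changes of -0.58 ± 0.32 for *Klf1* and -0.75 ± 0.45 for *Gata1*.

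*Tfrc* went the other way. It had 224, 132 and 156 CPM in E12.5 controls and 206, 168 and 225 CPM in mutants, with overlapping groups and a log2 fold change of 0.24 ± 0.17. The receptor is made by all dividing cells, so its counts in a whole heart need not come from blood. Its gene lies on chromosome 16, 13.6 Mb from *Hira*.

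**Figure D1:**
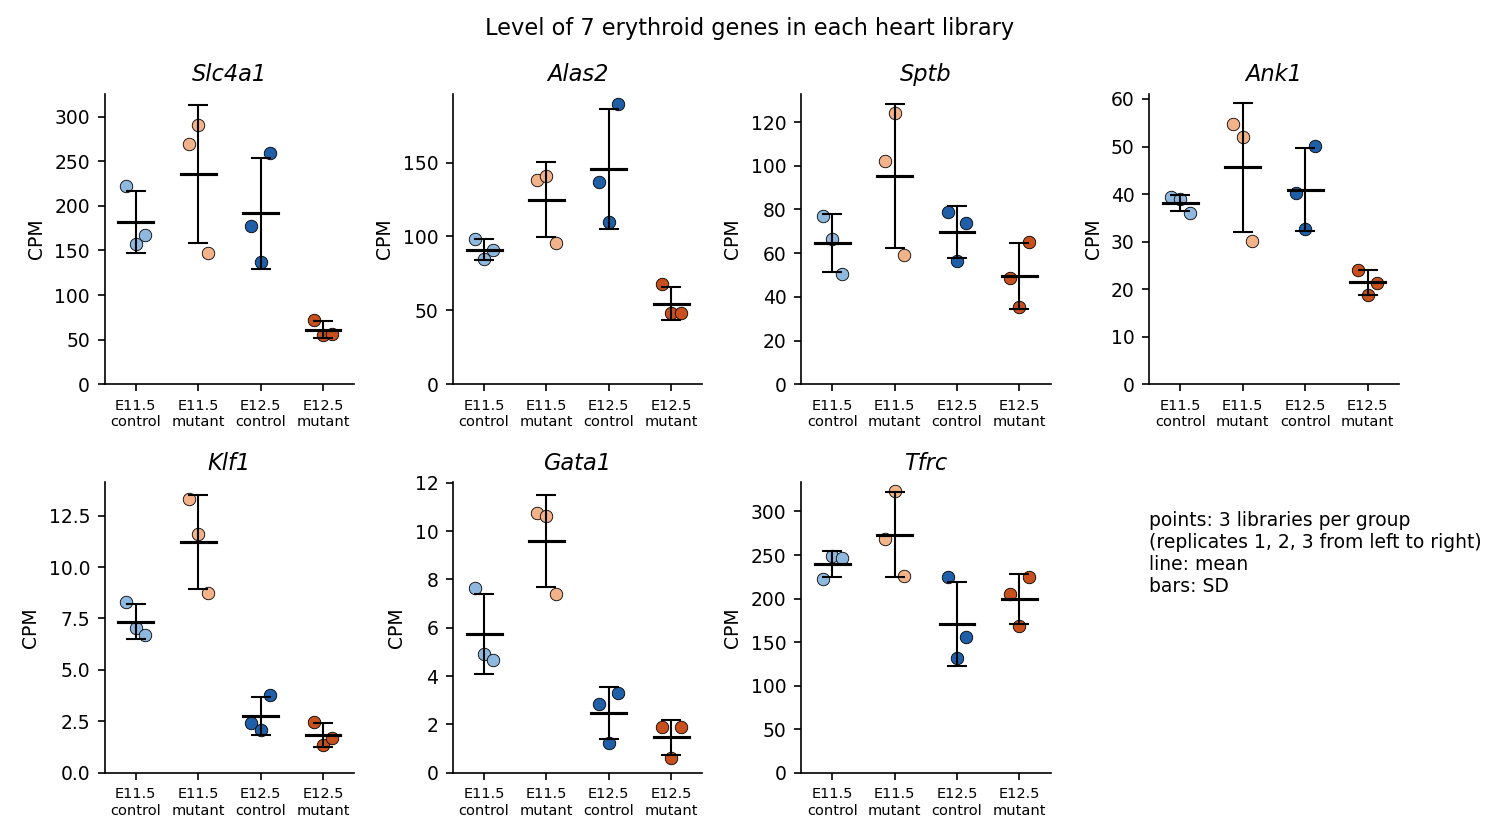
Level in CPM (vertical axes, from 0) of each of the 7 genes in the 12 heart libraries, by stage and genotype, with points for libraries, thick lines for means and bars for SD. In *Slc4a1*, *Alas2* and *Ank1* the 3 E12.5 Mutant points lie under every other library of the plot, as with 55.1 to 71.8 CPM of *Slc4a1*, while *Klf1* and *Gata1* are lower at E12.5 in both genotypes.

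A gene was called changed when its p from edgeR's quasi-likelihood test, adjusted over all genes after Benjamini and Hochberg, was no more than 0.05 and its fold change no less than 1.5. At E12.5 3 of the 7 genes, *Slc4a1*, *Alas2* and *Ank1*, met these thresholds, against 1.36% of 12659 genes called lower (1.64% higher, 2.99% in either direction). The choice of the 7 used these libraries, so nothing is read from that count. Across all genes 14.1% had every mutant library below every control. *Slc4a1*, *Alas2* and *Ank1* met the thresholds in each of 6 refits lacking 1 library, and *Sptb* met them in 1, without Mutant 3.

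At E11.5 the same genes lay on the other side, and only weakly. All 7 had a higher mean in the mutants, from a log2 fold change of 0.19 ± 0.15 for *Tfrc* to 0.75 ± 0.26 for *Gata1*, and none met the thresholds, which 0.119% of 12587 genes did (0.0556% higher and 0.0636% lower). *Klf1* was the one gene of the 7 with no overlap, at 8.32, 7.03 and 6.68 CPM in controls and 13.3, 11.6 and 8.74 CPM in mutants, where 7.77% of all genes had every mutant library above and 8.6% below. *Gata1* had 7.63, 4.92 and 4.66 CPM in controls and 10.8, 10.6 and 7.41 CPM in mutants. *Slc4a1* had 222, 157 and 167 CPM in controls and 269, 290 and 147 CPM in mutants. Mutant 3 was the lowest of the 3 mutants in each of the 7 genes, and in *Slc4a1* and *Ank1* it lay below every control.

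That library was also the only male and the least deeply sequenced of the E11.5 mutants, beside controls that were all male. With sex as a term in the fit, the genotype difference rests on this 1 mutant library, and the log2 fold change became -0.30 for *Slc4a1*, -0.34 for *Ank1*, -0.13 for *Sptb* and -0.08 for *Tfrc*. *Alas2*, *Klf1* and *Gata1* stayed positive, at 0.07, 0.25 and 0.37. Sex, depth and the individual embryo cannot be told apart here. At E12.5, where each genotype had 1 male, the sex term gave -1.61 for *Slc4a1*, -1.39 for *Alas2* and -0.91 for *Ank1*.

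**Figure D2:**
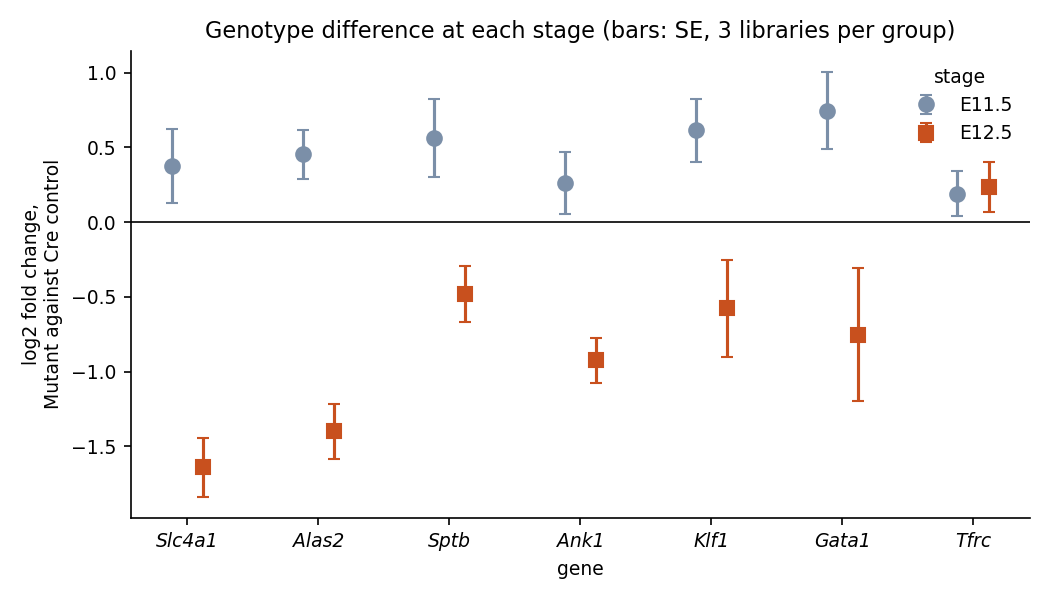
Log2 fold change of Mutant against Cre control (vertical axis) for the 7 genes at E11.5 (grey circles) and E12.5 (orange squares), with bars for SE and 3 libraries per group. All but *Tfrc* sit above 0 at E11.5 and below 0 at E12.5, from 0.37 to -1.64 in *Slc4a1*, whereas *Tfrc* lies a little above 0 at both.

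With the E11.5 genotype difference subtracted from the E12.5 one, the values were -2.03 ± 0.37 on the log2 scale for *Slc4a1*, -1.87 ± 0.29 for *Alas2*, -1.51 ± 0.56 for *Gata1*, -1.20 ± 0.38 for *Klf1*, -1.20 ± 0.29 for *Ank1*, -1.05 ± 0.37 for *Sptb* and 0.03 ± 0.26 for *Tfrc*. By edgeR 0 of 12658 genes passed the test of this difference, and 563 did at an unadjusted p of 0.05. DESeq2 called *Slc4a1*, *Alas2* and *Ank1*, and limma none of the 7. With E11.5 Mutant 3 left out, edgeR called the same 3. The E11.5 mutants of that refit were all female and the controls all male, so sex and genotype cannot be told apart there. The share of all genes called by DESeq2 or in that refit is not given here. These calls on genes picked from the same libraries are given as a description.

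The order of the 4 groups was shared by *Slc4a1*, *Ank1* and *Sptb*, and another by *Klf1* and *Gata1*. For *Slc4a1* the means fell from 236 CPM in E11.5 mutants through 191 CPM in E12.5 controls and 182 CPM in E11.5 controls, neighbours that overlap, to 60.9 CPM in E12.5 mutants, which stood apart. *Alas2* was highest in E12.5 controls (145 CPM), then E11.5 mutants (125 CPM) and E11.5 controls (91.1 CPM), each overlapping the next, and lowest and apart in E12.5 mutants (54.6 CPM). *Ank1* ran in the order of *Slc4a1*, at 45.6, 40.9, 38.1 and 21.4 CPM, again with only the last group separate. *Sptb* had the same order at 95.3, 69.7, 64.7 and 49.5 CPM, and all neighbours overlapped. *Klf1* stepped down from E11.5 mutants (11.2 CPM) to E11.5 controls (7.34 CPM) to E12.5 controls (2.76 CPM) without overlap, and the last overlapped E12.5 mutants (1.84 CPM). *Gata1* followed it with 9.59, 5.73, 2.48 and 1.46 CPM, where the only gap was between the stages. For *Tfrc* the E11.5 groups (273 CPM in mutants, 239 CPM in controls) led those at E12.5 (199 and 171 CPM), with every neighbour overlapping.

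Per length, *Alas2* was the most abundant of the 7 in E12.5 controls, at 73.5 ± 20.5 RPKM (reads scaled to library total and gene length). *Slc4a1* had 42.1 ± 13.7 RPKM and *Tfrc* 34.8 ± 9.7 RPKM in the same hearts. *Sptb* and *Ank1*, which are long genes, had 6.70 ± 1.13 and 4.75 ± 1.01 RPKM, and *Klf1* and *Gata1* had 1.80 ± 0.60 and 1.37 ± 0.60 RPKM. In E12.5 mutants *Tfrc* led with 40.6 ± 5.9 RPKM, ahead of *Alas2* at 27.6 ± 5.7 RPKM and *Slc4a1* at 13.4 ± 2.1 RPKM.

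From E11.5 to E12.5 the controls had less *Klf1* and *Gata1* and more *Alas2*. *Klf1* was lower at E12.5 by a log2 fold change of -1.41 ± 0.26 and *Gata1* by -1.22 ± 0.35, in all 3 libraries each. *Alas2* was higher by 0.67 ± 0.17, also in all 3. *Slc4a1*, *Sptb* and *Ank1* stayed near their earlier level, at 0.07 ± 0.21, 0.11 ± 0.16 and 0.10 ± 0.14, and *Tfrc* was at -0.49 ± 0.17. *Klf1* (lower) and *Alas2* (higher) met the thresholds, which 5.36% of 12646 genes did (2.85% higher and 2.51% lower). All libraries lay above in 18.3% of genes and below in 19.3%. The 7 were picked on these libraries, so nothing is read from the count. The E11.5 controls were all male and 2 of 3 E12.5 controls female, and with sex as a term *Klf1* had -0.95 and no longer met the thresholds, whereas *Alas2* did.

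In the mutants all 7 genes were lower at E12.5. *Slc4a1* changed by -1.95 ± 0.25 on the log2 scale, *Alas2* by -1.19 ± 0.20, *Klf1* by -2.61 ± 0.28 and *Gata1* by -2.72 ± 0.38, and these 4 met the thresholds, against 0.538% of 12639 genes (0.293% higher and 0.245% lower). *Ank1* (-1.09 ± 0.23), *Sptb* (-0.94 ± 0.29) and *Tfrc* (-0.45 ± 0.16) did not meet the thresholds. Nothing is read from this count either. In all but *Sptb* every E12.5 mutant lay below every E11.5 mutant, as in 8.49% of all genes. Their direction held in each fit that left out a library, but the number of the 7 that met the thresholds in mutants went from 0 without E12.5 Mutant 2 or 3, through 1 without E12.5 Mutant 1 and 2 without E11.5 Mutant 1 or 2, to 6 without E11.5 Mutant 3. In controls it was 0 without E12.5 control 1, 1 without E12.5 control 2 or E11.5 control 1 or 3, and 3 without E11.5 control 2. The mutant and control steps share no library.

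**Figure D3:**
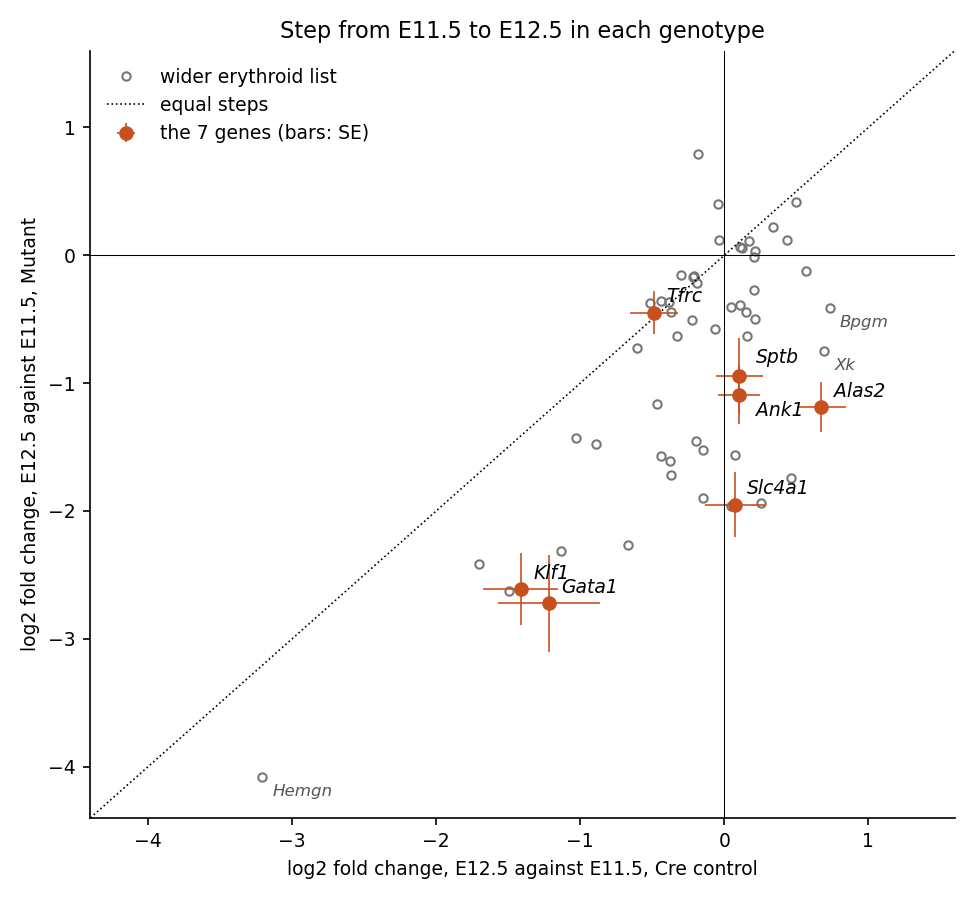
Log2 fold change of E12.5 against E11.5 in Cre control hearts (horizontal axis) and in Mutant hearts (vertical axis) for the 7 genes (orange, bars are SE) and for 50 genes of the wider erythroid list (open circles), with a dotted line where both steps are equal. Of these 50 genes 41 lie under the line, as do 49.9% of all genes. By edgeR 0 of 50 passed the test of this difference, and by DESeq2 8 did. The share of all genes called by DESeq2 for this difference is not given here. At an unadjusted p under 0.05 by edgeR there were 23 of the 50, beside 563 of 12658 genes in all. *Klf1* and *Gata1* lie to the left, while *Alas2* lies to the right near *Xk* and *Bpgm*.

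Genes of the wider list also moved between the stages (edgeR, adjusted over all genes). In controls 7 fell from E11.5 to E12.5 and 2 rose, of 52 tested, where 2.51% of all genes fell and 2.85% rose. The fall was deepest in *Hemgn*, which encodes a nuclear protein of blood progenitors, from 30.5 ± 5.4 to 3.30 ± 1.20 CPM (log2 fold change -3.21 ± 0.23, adjusted p = 0.00062). *Epor*, the erythropoietin receptor gene, fell by 1.03 on the log2 scale (adjusted p = 0.026). Others that fell were *Icam4*, *Rhd*, *Tspan33* and *Cpox*. *Bpgm*, whose enzyme makes the metabolite that eases oxygen off hemoglobin, rose by 0.73 ± 0.13 (adjusted p = 0.017), and *Xk*, a membrane transport protein gene, by 0.69 ± 0.20 (adjusted p = 0.047). The count of 9 came down to 1, *Hemgn*, with sex as a term, and to 1 without E12.5 control 1, 3 without E12.5 control 2 or E11.5 control 1, and 4 without E11.5 control 3. In mutants 11 of 51 fell and 0 rose, where 0.245% of all genes fell, *Hemgn* (adjusted p = 0.0058) and *Rhd* (adjusted p = 0.0092) with the lowest p. That count was 0, 1 and 2 without E12.5 Mutant 2, 3 and 1, 4 and 5 without E11.5 Mutant 1 and 2, and 20 without E11.5 Mutant 3.

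At E12.5 the wider list was lower in the mutants as well. Of 51 genes tested 9 fell and 0 rose, and 42 did not pass, where 1.36% of all genes fell and 1.64% rose. The list had a median log2 fold change of -0.35 beside -0.0031 for all genes. All 3 mutant libraries lay below all controls in 23 of the 51, and all above in 1, where all genes had 14.1% and 12.2%. Membrane and skeleton genes held 5 of the 9. *Kel*, which encodes a blood group protein, fell from 38.7 ± 14.5 to 11.9 ± 2.0 CPM (log2 fold change -1.69 ± 0.23, adjusted p = 0.0035). *Epb42*, for protein 4.2, which sits on band 3, fell from 18.7 ± 6.6 to 5.86 ± 1.08 CPM (-1.66 ± 0.24, adjusted p = 0.0045). *Ermap* and *Xk* were also among those that fell, and 11 of 16 did not pass.

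Among 11 iron and heme transport genes 2 fell. *Slc40a1*, the iron exporter ferroportin, fell from 15.03 ± 0.26 to 8.66 ± 0.87 CPM (log2 fold change -0.78 ± 0.13, adjusted p = 0.0077), and *Slc25a37*, the mitochondrial iron importer, by 0.64 (adjusted p = 0.033). Macrophages also make ferroportin. *Bpgm* (-0.98 ± 0.14, adjusted p = 0.0042) and *Car2*, a carbonic anhydrase gene (-0.87 ± 0.15, adjusted p = 0.011), fell among 7 other red cell proteins.

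None of the 8 other heme synthesis enzymes passed with edgeR, DESeq2 or limma, and 4 had an unadjusted p under 0.05. Of all 12659 genes tested by edgeR at E12.5, 2701 had an unadjusted p under 0.05. *Fech*, which puts the iron into heme, came nearest, at 130 ± 14 and 94.1 ± 3.2 CPM (log2 fold change -0.45 ± 0.09, adjusted p = 0.015), under the fold threshold. *Alad* and *Urod*, enzymes further along the pathway, had log2 fold changes of 0.09 and -0.04, and *Alas1*, the form of the first enzyme that all cells use, had -0.24 ± 0.08. Of 9 erythroid regulators 0 passed with any of the 3 tools and 4 had an unadjusted p under 0.05. The abundant cofactor genes *Ldb1* and *Zfpm1* had log2 fold changes of -0.02 and 0.31, while 6 of the 9 regulators were negative, with a median of -0.33. The lowest was *Gfi1b*, a repressor gene, at -1.18 ± 0.36 (edgeR, adjusted p = 0.083), with all 3 mutants below all controls. With an adjusted p of at most 0.05 at any fold, 12 of the 51 genes were lower and 0 higher, which adds *Fech*, *Epb41* and *Mpp1*. Of all genes 5.16% had such an adjusted p, counting both directions.

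**Figure D4:**
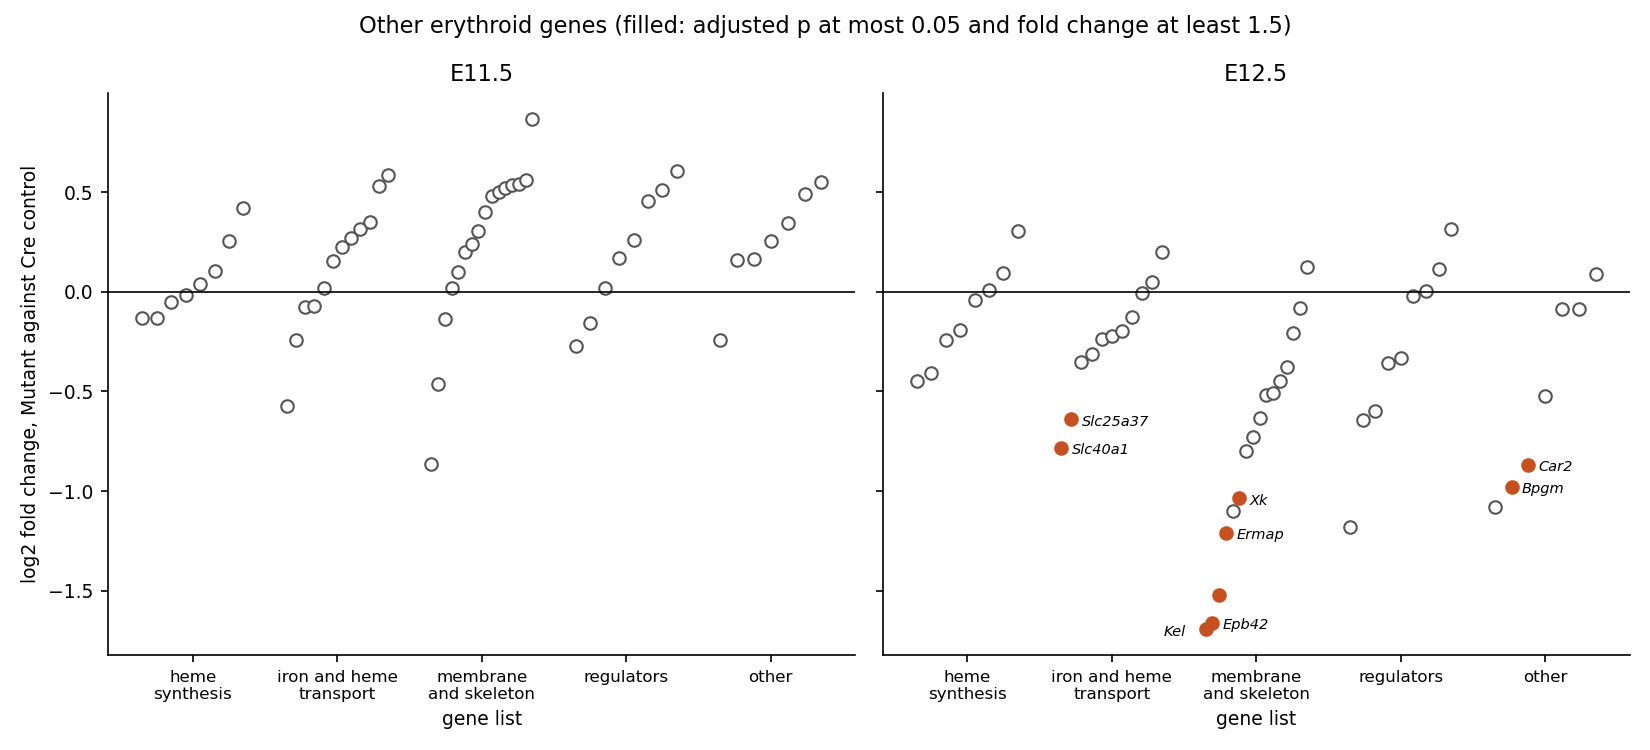
Log2 fold change of Mutant against Cre control (vertical axis) for the other erythroid genes at E11.5 and E12.5, by gene list, with filled points for genes that passed the test. No gene of 51 is filled at E11.5, and 9 are at E12.5, all below 0, with *Kel* and *Epb42* lowest.

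The 9 calls came to 4 with genes below a mean of 5 RPKM left out and 4, *Bpgm*, *Epb42* and *Kel* among them, with all 12 libraries in 1 fit. As single libraries were left out the count ran from 6, without control 1 or Mutant 2, to 10. At E11.5 0 of 51 genes passed with edgeR, DESeq2 or limma, and the median log2 fold change was 0.22. By edgeR 8 of the 51 had an unadjusted p under 0.05, as did 1286 of 12587 genes in all.

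Globin genes, the main product of these cells, were set beside the 7. Their summed level was 4825 ± 1226 CPM in E12.5 controls and 2341 ± 385 CPM in mutants. By edgeR 6 of 7 tested fell, with a median log2 fold change of -0.93, where 1.36% of all genes fell. DESeq2 and limma also called 6, and edgeR with all 12 libraries in 1 fit called 4, all lower. The share of all genes called in these other fits is not given here. At E11.5 the globin sum was 4755 ± 571 and 4905 ± 601 CPM. The genes *Hbb-b1* with *Hbb-b2* and *Hba-a1* with *Hba-a2* are near-identical copies whose reads the counting may divide, which the sum avoids.

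Set against globin counts, the 7 genes did not shift together at E12.5. There were 3.92 ± 0.34 counts of *Slc4a1* per 100 globin counts in controls and 2.61 ± 0.08 in mutants, and 3.001 ± 0.151 and 2.32 ± 0.10 of *Alas2*, with no overlap for either. *Ank1* overlapped between genotypes, at 0.854 ± 0.056 and 0.921 ± 0.095. *Sptb* and *Gata1* overlapped too. *Klf1* lay higher in all 3 mutants, at 0.0565 ± 0.0041 in controls and 0.0776 ± 0.0136 in mutants, as did *Tfrc*, at 3.68 ± 1.31 and 8.66 ± 1.90. At E11.5 *Alas2*, *Klf1* and *Gata1* lay higher in all 3 mutants, with 1.93 ± 0.15 and 2.52 ± 0.22 counts of *Alas2* per 100. The globin sum was 2.06-fold lower in E12.5 mutants, so a gene with the same CPM in both genotypes lies higher per globin count, and 91% of all genes lay higher in all 3 mutants while 0.079% lay lower. At E11.5 2.76% of all genes lay higher in all 3 mutants and 6.7% lower. These ratios were not tested.

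**Figure D5:**
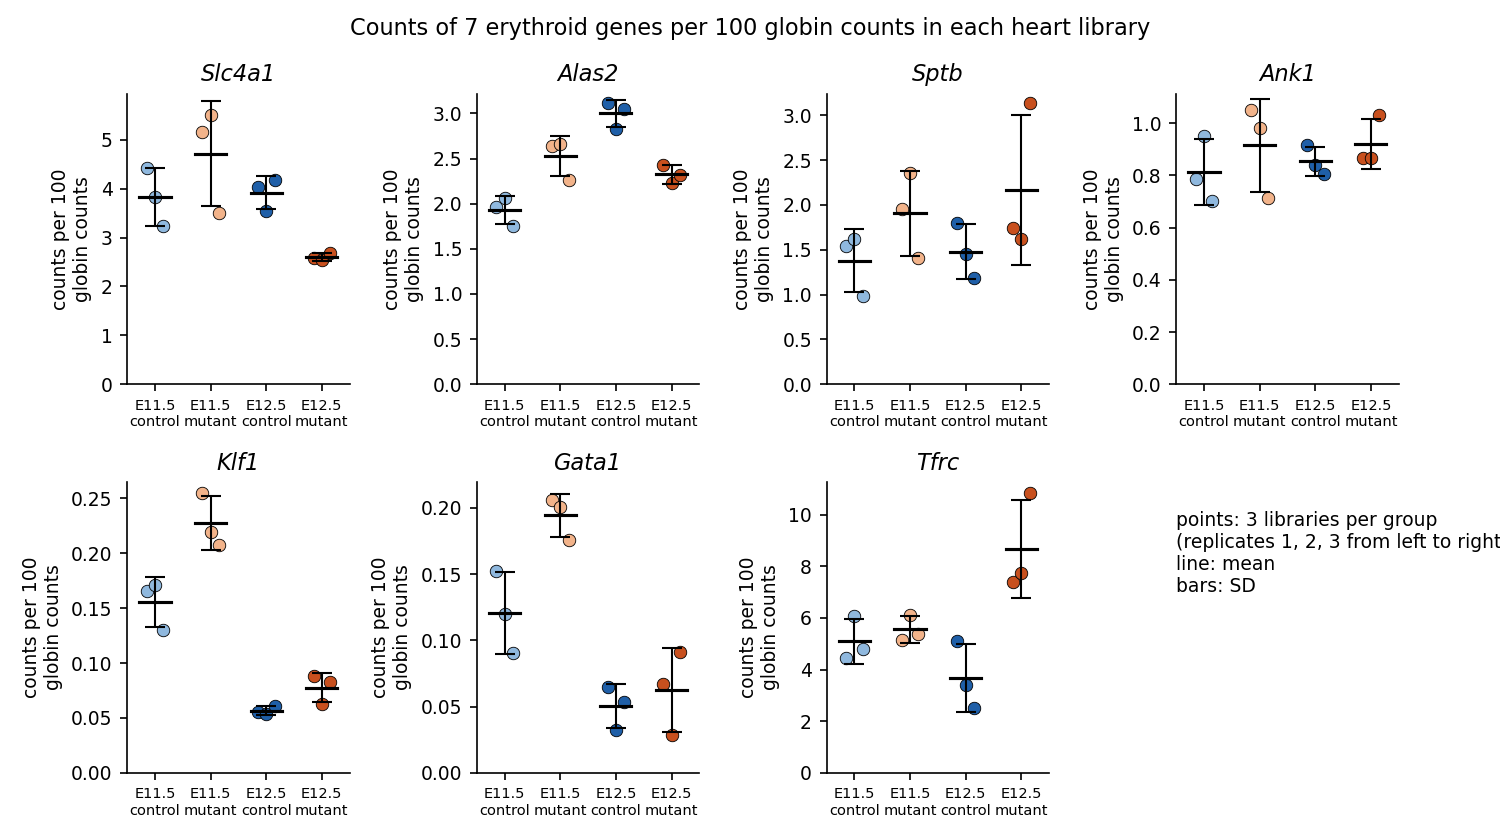
Counts of each of the 7 genes per 100 globin counts (vertical axes, from 0) in the 12 heart libraries, with points for libraries, thick lines for means and bars for SD. At E12.5 the mutant points lie below the controls for *Slc4a1* and *Alas2*, among them for *Ank1*, and above them for *Klf1* and *Tfrc*.

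The genes most like each of the 7 over the 12 libraries were sought by the root mean square difference of log2(CPM + 1), each gene centred on its own mean, among 11021 genes with a mean of at least 5 CPM. Among the nearest to *Slc4a1* were *Epb42* (0.15) and *Ermap* (0.21), where *Slc4a1* itself varied by 0.80 about its mean. *Klf1* had *Rhd* (0.17), *Acp5* and *Slc30a10*, and *Gata1* had *Rhd* (0.19), *Rhag* and *Slc30a10*. Between *Klf1* and *Gata1* the difference was 0.21, and between *Klf1* and *Alas2* 0.77. *Alas2* had *Grap2*, *Xk* and *E130309D14Rik*, *Ank1* had *Slc6a9*, *Grap2* and *Trim10*, and *Sptb* had *Slc6a9*, *Abcb10* and *Grap2*. *Tfrc* had *Prom1*, *Hs6st2* and *Slc39a8*, none of them on the erythroid lists. The libraries of a group and their depth are shared by all these points.

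Related genes that other cells use in place of the 7 did not pass at E12.5, 0 of 7 with edgeR, DESeq2 or limma. By edgeR 3 had an unadjusted p under 0.05, as did 2701 of 12659 genes in all. The anion exchangers *Slc4a2* and *Slc4a3* had log2 fold changes of -0.28 and -0.42, the spectrins *Sptbn1* and *Sptan1* -0.20 and -0.11, and the ankyrins *Ank2* and *Ank3* -0.24 and 0.11. *Slc4a3* had an adjusted p of 0.044 under the fold threshold. *Ank1* has short forms made in muscle, and the annotation places other genes within it, *Mir486* among them. *Alas2* overlaps *Apex2* on the other strand and *Sptb* overlaps *Plekhg3*. Use of the strand is not given in the sources used here, so reads in the overlaps cannot be assigned.

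Among markers of other cells, those of macrophages, which take up red cells and their nuclei, were lower beside these genes in E12.5 mutants. In E11.5 mutants against controls the macrophage genes had a median log2 fold change of -1.93 and the 7 a median of 0.45. Those controls were all male, and with sex as a term *Slc4a1*, *Ank1*, *Sptb* and *Tfrc* turned negative. From E11.5 to E12.5 the macrophage genes had a median of 1.78 in mutants and 0.59 in controls. The 7 had medians of -1.19 in mutants and 0.07 in controls. The 6 macrophage genes summed to 79.4 to 98.8 CPM in E12.5 controls and 37.8 to 55.0 CPM in mutants. Of them 4 of 6 fell, led by *Mrc1* (log2 fold change -1.30 ± 0.17, adjusted p = 0.0025), where 1.36% of all genes fell. With limma 3 of 6 were called, and with all 12 libraries in 1 fit 0. At E11.5 the sums were 27.7 to 73.9 and 12.6 to 16.1 CPM. In that comparison edgeR and limma called 0 of 6, DESeq2 4, and edgeR with all 12 libraries in 1 fit 5, all lower. By edgeR within the stage all 6 had an unadjusted p under 0.05, as did 1286 of 12587 genes. Liver genes summed to 47.8 CPM in E12.5 Mutant 1 and 2.65 to 13.6 CPM in the other E12.5 libraries of both genotypes. At E11.5 they summed to 53.2 CPM in Mutant 1, 23.8 CPM in control 1 and 0.644 to 2.16 CPM in the other 4, and *Alb* was at 17.9 CPM in E12.5 Mutant 1, with *Fgb* and *Serpina1a* at no more than 0.433 CPM in all 12. By edgeR 3 of the liver genes were tested at E12.5, with log2 fold changes of 1.29 to 3.93, 0 called and 3 at an unadjusted p under 0.05. Without the low-count filter 2 of 6 were called, both higher in mutants. For the macrophage and liver genes, the shares of all genes called by DESeq2, limma and the other alternative fits are not given here. Without E12.5 Mutant 1 the number of the 7 genes that met the thresholds at E12.5 stayed 3. The part of macrophages and of liver cells in these values was not tested. The lists of cardiomyocyte, endothelial, megakaryocyte and proliferation genes had 0 of 6 called each at E12.5 by edgeR, DESeq2 and limma. By edgeR 3, 3, 1 and 1 genes of these lists had an unadjusted p under 0.05, beside 2701 of 12659 genes in all.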

How the data were processed

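Hearts were taken in triplicate and RNA was sequenced as paired ends. Per the labels, the tools were Bowtie2 (version 2) and DESeq and the build was mm10. The counting program, annotation and use of the strand are not given in the sources used here, and neither is whether each library was 1 heart, so p-values measure the spread between libraries. As deposited by the authors, the data were RPKM values of 20368 genes and 2 comparisons over 19424 genes, which give the authors' average counts per group, which are means of whole counts over 3 libraries and, like an expected count, need not be whole, and fold changes and p-values that were not used. Each deposited RPKM value is a whole count multiplied by a gene length and a library factor, where RPKM divides by both, so these values were not compared as deposited. Lengths and factors were solved from the deposited average counts, and 17827 genes came out within 5.82e-10 of whole counts. Of 944 genes outside the comparisons, mostly X-linked and including *Alas2* and *Gata1*, 483 were recovered from the greatest common divisor of their values, which gave the same length for 12996 of 13000 check genes.

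Counts were tested with edgeR 4.0.16 in R 4.3.3 (quasi-likelihood, TMM scaling), within a stage, within a genotype and for the difference between stages, keeping genes whose RPKM averaged 0.5 or more. Y-linked genes were left out. RPKM was recomputed from counts and the authors' lengths. SE was derived from the F statistic. The fits were first tested on simulated counts with known changes. DESeq2 1.42.0, limma 3.58.1 on log2(RPKM + 0.5), other filters and scalings, a sex term, the replicate number as a block and each library left out were alternatives. The 7 genes, the lists and the tests were chosen with earlier results of these data known. Named genes are the 7, up to 4 called genes of each list at E12.5 by adjusted p (or the 2 most abundant), the paralogs and the nearest profiles. *Fech*, *Alas1*, *Gfi1b*, *Epb41*, *Mpp1*, *Ermap* and the genes named for the stage steps, with *Urod*, were chosen after their values were seen. Of the listed genes *Ahsp* and *Gp1bb* matched no row, and some items are not reported here.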

Additional observations from a re-analysis of the deposited data

Results flagged for a closer look

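A pair of globin genes lay above all controls in every E11.5 mutant library and below all controls in every E12.5 mutant library. The pair was found by looking through all listed genes for this pattern. Across all genes 7.77% had every mutant library above every control at E11.5, and 14.1% had every one below at E12.5. The share with both is not given here. The E11.5 controls were all male and of the E11.5 mutants only Mutant 3 was, so sex and genotype were not balanced at that stage. *Hbb-b1*, an adult beta globin gene, had 39.9 to 78.0 CPM in E11.5 controls and 95.7 to 175 CPM in E11.5 mutants, and 229 to 283 and 94.6 to 190 CPM at E12.5. The E12.5 genotype effect less the E11.5 one was -1.89 on the log2 scale (edgeR, adjusted p = 0.27 over all genes), which does not pass. *Hba-a1*, an adult alpha globin gene, had 151 to 214 CPM in E11.5 controls and 217 to 241 CPM in mutants, and 268 to 337 and 158 to 218 CPM at E12.5, a difference of -1.04 (adjusted p = 0.25). Both have near-identical copies.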

How the results depend on the processing

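The 3 calls among the 7 genes at E12.5 became 2 at a mean RPKM of at least 5, where 4 genes were tested. They became 2 without X-linked genes, where 5 were tested. They stayed 3 under the other alternatives and were 3 to 4 as each library was left out. The 9 calls of the wider list at E12.5 became 4 at a mean RPKM of at least 5 and 4 with all 12 libraries in 1 fit, and ran from 6 to 10 with a library left out. At E11.5 both counts were 0 throughout. In controls from E11.5 to E12.5 the wider list went from 9 to 5 with all 12 libraries in 1 fit and 1 with the sex term (1 to 10 with a library left out). The 2 calls among the 7 became 1 at a mean RPKM of at least 5, with all 12 libraries in 1 fit, without X-linked genes and with the sex term (0 to 3 with a library left out). In mutants the wider list went from 11 to 18 without the filter, 21 with DESeq2, 19 with all 12 libraries in 1 fit and 6 with the replicate block (0 to 20 with a library left out), and the 4 calls among the 7 became 1 at a mean RPKM of at least 5, 2 without X-linked genes and 2 with the block (0 to 6). For the difference between stages the wider list went from 0 to 8 with DESeq2 (0 to 4), and the 7 genes from 0 to 1 without the filter and 3 with DESeq2 (0 to 3). Without X-linked genes *Alas2* and *Gata1* have no value. The cause of these shifts was not tested, save that fewer genes or libraries enter some fits. The share of all genes called under each alternative is not given here. *Hira* at E12.5 turned from -0.01 to 0.00123, 0.000877 and 0.000483 with limma at pseudocounts of 0.1, 0.5 and 1, and ran from -0.14 to 0.10 with a library left out (0.0142 and 0.102 without control 1 and 2, 0.0126 and 0.0123 without Mutant 2 and 3).

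Replicate numbers share no stated pairing. Deviations of same-numbered libraries correlated from -0.17 to 0.51, so the numbers were not taken as pairs, and the block changed no other count by over 1.5 times. With 3 libraries per group and *Klf1* and *Gata1* at 11 to 64 counts per library at E12.5, differences of the size seen in these 2 genes did not stand out from the spread at that stage.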

Other observations

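Megakaryocytes arise beside red cells from a shared precursor that uses GATA1. Of 6 of their genes with counts 2 fell from E11.5 to E12.5 in control hearts (edgeR, adjusted over all genes), where 2.51% of all genes fell. With sex as a term, and with all 12 libraries in 1 fit, 0 were called. *Pf4*, for a platelet chemokine, fell from 34.6 to 12.4 CPM (log2 fold change -1.48 ± 0.27, adjusted p = 0.017), and *Ppbp*, for another, from 17.6 to 7.08 CPM (-1.31 ± 0.25, adjusted p = 0.021). In mutants their values were -1.24 ± 0.49 (adjusted p = 0.49) and -1.03 ± 0.42 (adjusted p = 0.51), and the difference between genotypes in this step had an adjusted p of 0.97 for *Pf4* and 0.96 for *Ppbp*. At E12.5 the summed level of the 6 genes was 39.9 to 69.9 CPM in controls and 39.4 to 94.8 CPM in mutants. At E11.5 it was 75.8 to 115 CPM in controls, and 92.3 and 87.8 CPM in Mutant 1 and 2 with 183 CPM in Mutant 3. *Pf4* is also made by some macrophages of the embryo.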
